A study of Mus musculus with 24 samples.

Results

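The 33 genes described here are markers of astrocytes in the mouse. They comprise 14 genes that mark astrocyte identity and 19 genes that mark the reactive state. The members were taken by name from 52352 genes quantified by poly-A RNA-seq in the frontal cortex of 24 mice. Every member was listed in the files, and 32 of the 33 had enough reads to be tested. The exception was Tgm1, a transglutaminase, which had between 0 and 6 reads in every library.

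The mice were littermates from a cross of Grn+/- mice with mice that carry a human TDP-43 transgene (hTDP). Grn encodes progranulin, a secreted lysosomal protein, and Grn+/- mice have a single working copy. Each of 4 genotypes held 6 mice, 3 female and 3 male, and each library came from a separate mouse: Grn+/- hTDP+ (aged 9.44 to 10.07 months), Grn+/- hTDP- (8.19 to 10.79 months), Grn+/+ hTDP+ (9.44 to 10.07 months) and Grn+/+ hTDP- (9.44 to 10.79 months). The ages 8.19, 9.14 and 10.56 months occurred only in Grn+/- hTDP- mice, so those mice had no mouse of the same age in another group. All mice were perfused with saline before the cortex was frozen. The promoter that drives the transgene is not given in the sources used here. The series asks whether progranulin insufficiency and TDP-43 overexpression act together, so the comparisons below are the effect of hTDP, the effect of Grn+/-, and the interaction between them.

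Astrocytes clear glutamate and potassium from the extracellular space, couple to each other through gap junctions, and wrap blood vessels with endfeet that carry water channels. Their identity genes encode this machinery: transporters, connexins, metabolic enzymes and the transcription factor Sox9. After injury, inflammation or neurodegeneration astrocytes become reactive, which is defined classically by a rise in the intermediate filament proteins GFAP and vimentin. Cytokine signals of the interleukin-6 family act through the receptors OSMR and IL6ST and the transcription factor STAT3 to raise many of these genes, and acute injury or endotoxin also raises Lcn2, Serpina3n, Cxcl10 and other secreted factors. In whole tissue, fewer cells of a type and less RNA per cell cannot be told apart.

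The libraries held 61445842 to 100859149 reads assigned to transcripts. Human TARDBP had 4328 to 8162 reads in hTDP+ libraries and 0 to 2 reads in hTDP- libraries. Grn stood at 13.7 to 32.55 CPM (counts scaled to library size) in Grn+/- mice and 34.5 to 60.3 CPM in Grn+/+ mice, so both labels matched the reads. Of 12 neuronal markers 12 passed the filter, with a summed level of 9912 to 12022 CPM, which does not tell frontal cortex from other brain regions. Of 9 striatum and olfactory bulb markers 8 also passed. The highest of these was Ppp1r1b, with group means of 79.5 to 93.1 CPM. Library 2 of the Grn+/+ hTDP+ group stood apart. With 97736984 reads it detected 17669 genes, where each of the remaining 23 libraries detected between 22269 and 23272, and it gave no read to 44.7% of the 1978 genes that average 10 to 30 reads. The weakly expressed members Lcn2, Steap4, Timp1 and Tgm1 were at 0 in that library while Ptx3 had 173 reads, so the values of weak members that it moved most are also given without it.

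Identity genes were abundant in this tissue. On the length-corrected TPM scale, the highest was Glul, glutamine synthetase, which makes glutamine from the glutamate that astrocytes take up, at 978 ± 64.9 TPM (SD over 24 mice). Aldoc, the brain form of the glycolytic enzyme aldolase, averaged 763 ± 39.3 TPM, Ndrg2, a differentiation-related protein of astrocytes, 590 ± 37.4 TPM, and Slc1a2, the main glutamate transporter of the forebrain, 417 ± 35.8 TPM. Below these 4 followed Atp1b2, a sodium pump subunit, at 239 TPM and Slc1a3, a second glutamate transporter, at 227 TPM. The calcium-binding protein gene S100b averaged 87.4 TPM and the connexin gene Gja1 84.6 TPM. The growth factor receptor gene Fgfr3 averaged 59.4 TPM, the second connexin gene Gjb6 43.5 TPM and the folate enzyme gene Aldh1l1 42.3 TPM. Slc4a4, a bicarbonate transporter, averaged 29.8 TPM, the water channel gene Aqp4 28.7 TPM and Sox9 15.3 TPM.

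Reactive genes were lower and covered a wider range. S100a10, an annexin partner that many cell types express, averaged 85.8 TPM, and Gfap, the astrocyte intermediate filament protein, 63.4 TPM with a range of 29.6 to 135 TPM over the 24 mice. Vim, vimentin, averaged 38.7 TPM, Hspb1, a small heat shock protein, 22.2 TPM and Serpina3n, a secreted protease inhibitor, 15.2 TPM. The ferroxidase gene Cp averaged 4.56 TPM and the sphingosine phosphate receptor gene S1pr3 4.05 TPM. Between 1 and 2 TPM stood Aspg (1.94 TPM), the interferon-induced GTPase gene Gbp2 (1.76 TPM), the hyaluronan receptor gene Cd44 (1.17 TPM) and Osmr, the oncostatin M receptor (1.14 TPM). The other 8 averaged under 1 TPM: Emp1 (0.862 TPM), Lcn2 (0.542 TPM), Timp1 (0.524 TPM), Ptx3 (0.409 TPM), Cxcl10 (0.394 TPM), Cd109 (0.172 TPM), Steap4 (0.112 TPM) and Tgm1 (0.0273 TPM). Lcn2, an iron-siderophore-binding secreted protein that is among the strongest marks of acute astrocyte reactivity, had at most 56 reads in a library, and 3 reads, the limit that a count of 0 allows, corresponded to 0.0298 to 0.0487 CPM. Such limits cover counting error only.

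**Figure D1:**
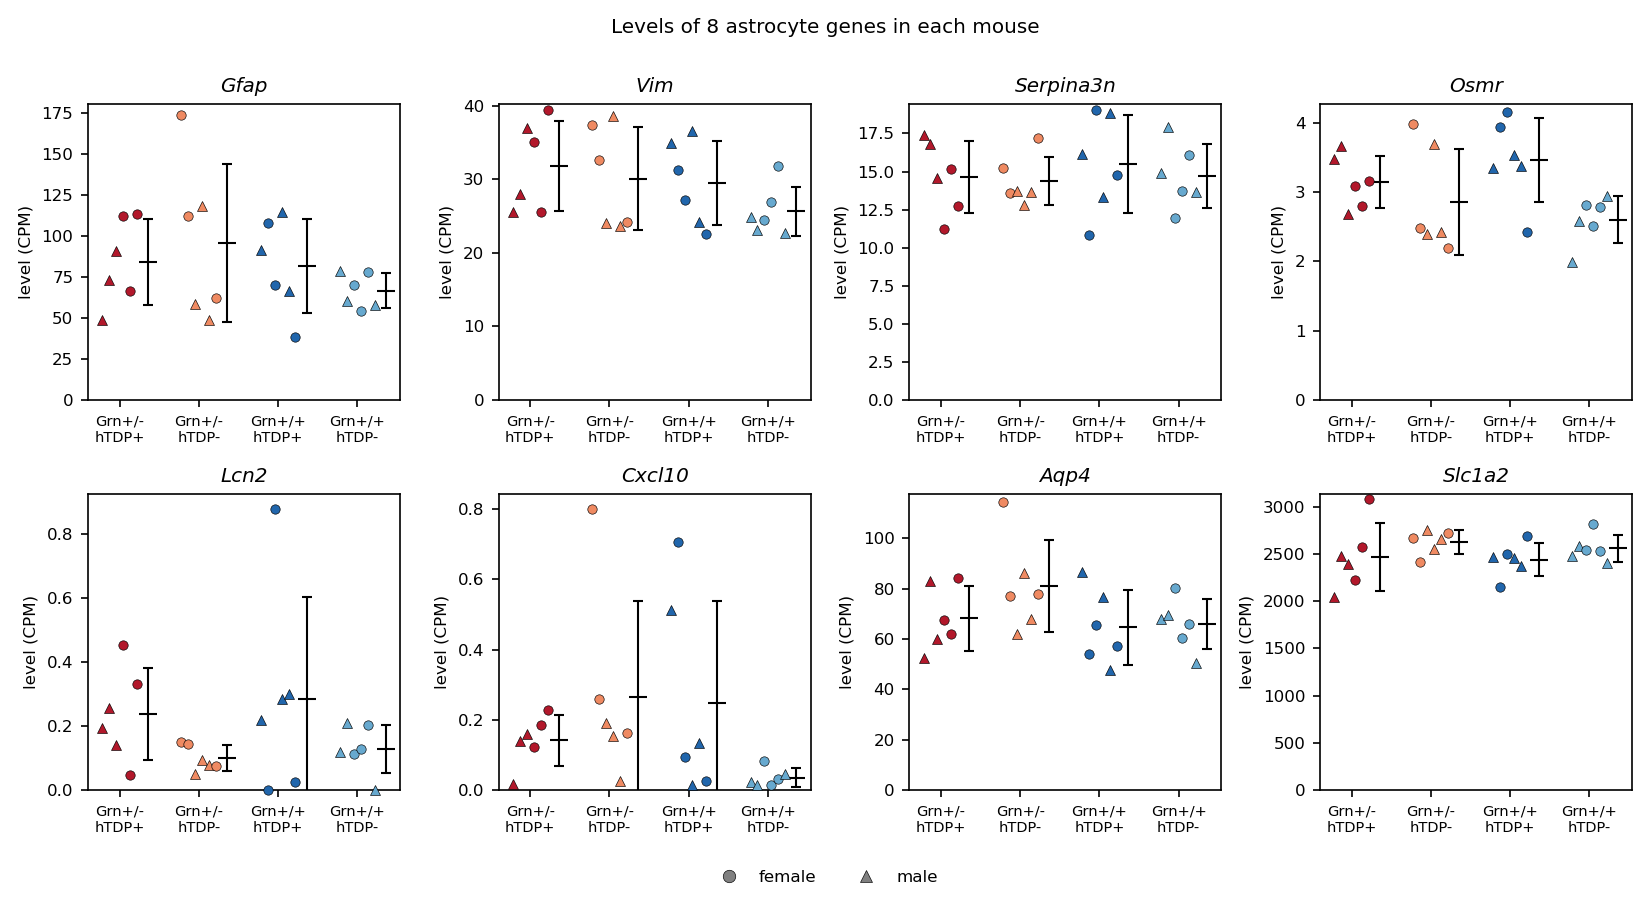
Level of 8 members in each mouse, in CPM (vertical axes), by genotype; circles are female mice, triangles male mice, and the black bar is the mean ± SD of 6 mice. The 4 genotypes overlap in each panel, Gfap ranges from 38.5 to 174 CPM, and Slc1a2 stays between 2049 and 3085 CPM.

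Some promoters are printed because the reactive genes are classically placed downstream of STAT3, and because Gfap differed widely between mice, as described below, while Aldoc did not. RefSeq promoters (build GRCm38.p6) were found for 28 of the 33 members, 11 identity and 17 reactive. The STAT motif TTCNNNGAA, which reads the same on both strands, was present between 250 bases before and 50 bases after the start site in 2 of 11 identity genes, Aldoc and Slc1a3, and in 4 of 17 reactive genes, Emp1, Gfap, Steap4 and Tgm1. The same letters occurred in 9.55% of the 27025 genes with a promoter in the table. The AP-1 motif TGANTCA, also the same on both strands, was present in 1 identity gene, Gja1, and in 5 reactive genes, Cp, Cxcl10, Emp1, Gbp2 and Osmr, against 8.97% of all genes. The palindromic NFI motif was found in no member and in 0.0444% of all genes. A match says only that the letters are there. In the following sequences, 250 bases before to 25 bases after the start site, capitals mark the STAT motif. The Gfap sequence lies at chr11:102897176-102897450 on the minus strand, Aldoc at chr11:78323948-78324222 on the plus strand and Steap4, a metalloreductase gene, at chr5:7960222-7960496 on the plus strand.
Gfap: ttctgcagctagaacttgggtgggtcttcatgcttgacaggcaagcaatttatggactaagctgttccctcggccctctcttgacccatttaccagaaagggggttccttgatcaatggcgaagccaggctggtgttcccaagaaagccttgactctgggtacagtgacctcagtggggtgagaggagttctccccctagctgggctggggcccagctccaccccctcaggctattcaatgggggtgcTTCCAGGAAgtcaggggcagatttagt
Aldoc: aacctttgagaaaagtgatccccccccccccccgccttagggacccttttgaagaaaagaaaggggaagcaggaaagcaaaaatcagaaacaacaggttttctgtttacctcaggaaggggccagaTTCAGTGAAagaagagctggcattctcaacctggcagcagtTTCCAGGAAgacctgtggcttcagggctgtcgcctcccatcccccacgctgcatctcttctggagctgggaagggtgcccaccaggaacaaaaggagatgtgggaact
Steap4: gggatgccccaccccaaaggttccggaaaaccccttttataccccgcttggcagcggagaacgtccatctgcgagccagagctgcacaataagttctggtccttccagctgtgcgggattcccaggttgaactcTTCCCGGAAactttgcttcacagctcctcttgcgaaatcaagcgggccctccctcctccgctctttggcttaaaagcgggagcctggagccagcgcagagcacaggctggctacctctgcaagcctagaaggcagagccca
In Gfap the motif starts at -2, so that it spans the RefSeq start site, which is also the annotated start of the transcript Gfap-202 and lies 69 bases before that of Gfap-201. In Aldoc the motifs start at -124 and -83, and in Steap4 the motif starts at -116. The letters TTCCAGGAA stood in the Gfap window and in the Aldoc window printed here. Another RefSeq promoter of Aldoc, at chr11:78322823-78323097, held no STAT motif. Aldoc was among the members with the smallest spread between mice and did not vary with Gfap, as given below. Reads mapped to Steap4 numbered 0 to 25 in a library.

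The members differed in how much they varied between mice of the same genotype. The within-genotype SD of log2 CPM had a median of 0.130 over the 14 identity genes and of 0.494 over the 18 reactive genes tested, against 0.164 over all 18239 genes tested. Weak expression widens this spread, and the median over the 9813 genes above 10 CPM was 0.0982. Gfap averaged 82.0 CPM, yet its SD of 0.533 was at the 82.0th percentile of all genes tested, and the highest mouse had 4.51 times the level of the lowest. Vim (0.274) and Aqp4 (0.284) also varied more than the median gene, whereas S100a10 (0.0863) and Aldoc (0.0859) did not. Lcn2 had an SD of 1.46, on 0 to 56 reads.

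For hTDP, no member differed between hTDP+ and hTDP- mice at an adjusted p under 0.05 (edgeR quasi-likelihood test with Benjamini-Hochberg adjustment over 18239 genes). Across all genes 20 were called, a share of 0.110%. DESeq2 called 61 genes and limma voom 20, with no member among them. At an unadjusted p under 0.05 stood 2 of the 32 members tested, Lcn2 and Osmr, beside 7.86% of all genes. For each member the values of hTDP+ and hTDP- mice overlapped, and 0.0329% of all genes had no overlap. Changes are given as log2 of hTDP+ over hTDP-, averaged over both Grn genotypes and adjusted for sex.

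Osmr, the receptor through which oncostatin M reaches STAT3, lies on chromosome 15 (6813577 to 6874969, minus strand, GRCm38). Its lowest, median and highest levels were 2.68, 3.12 and 3.66 CPM in Grn+/- hTDP+ mice, 2.20, 2.45 and 3.97 CPM in Grn+/- hTDP- mice, 2.42, 3.46 and 4.16 CPM in Grn+/+ hTDP+ mice and 1.996, 2.68 and 2.94 CPM in Grn+/+ hTDP- mice. The medians of both hTDP+ groups were above those of both hTDP- groups, and the ranges overlapped. The average change was 0.28 (SE 0.108, 95% interval 0.05 to 0.50, edgeR adjusted p = 0.573).

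Lcn2 (chromosome 2, 32384633 to 32388252, minus strand) had lowest, median and highest levels of 0.0461, 0.225 and 0.454 CPM in Grn+/- hTDP+ mice, 0.0511, 0.0856 and 0.151 CPM in Grn+/- hTDP- mice, 0, 0.252 and 0.879 CPM in Grn+/+ hTDP+ mice and 0, 0.123 and 0.208 CPM in Grn+/+ hTDP- mice. The highest hTDP+ mice were above every hTDP- mouse and the lowest hTDP+ mice were within or below the hTDP- range. The fitted change was 1.20 (SE 0.525, edgeR adjusted p = 0.613). It was 0.78 without replicate 3 of the Grn+/+ hTDP+ group, the mouse with 56 reads, and 1.35 without the library with few genes. Neutrophils also make Lcn2, and the neutrophil genes S100a9 and S100a8 stood at 1.18 (edgeR adjusted p = 0.323) and 1.002 (adjusted p = 0.644) in hTDP+ over hTDP- mice. Markers of blood cells summed to 13.7 to 78.5 CPM in Grn+/- hTDP+ mice, 11.5 to 151 CPM in Grn+/- hTDP- mice, 18.3 to 54.8 CPM in Grn+/+ hTDP+ mice and 11.2 to 31.1 CPM in Grn+/+ hTDP- mice, and their part in the Lcn2 values was not tested.

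Neither filament gene was called between the hTDP genotypes. Gfap (chromosome 11, 102887336 to 102900912, minus strand) had lowest, median and highest levels of 48.7, 82.1 and 113.45 CPM in Grn+/- hTDP+ mice, 48.6, 87.4 and 174 CPM in Grn+/- hTDP- mice, 38.5, 81.0 and 114.5 CPM in Grn+/+ hTDP+ mice and 54.1, 65.2 and 78.7 CPM in Grn+/+ hTDP- mice. The Grn+/+ hTDP- mice formed the narrowest group and the Grn+/- hTDP- mice the widest. The hTDP+ change was 0.06 (SE 0.197, 95% interval -0.34 to 0.47, edgeR adjusted p = 0.955). This is the average of 0.31 within Grn+/+ mice and -0.18 within Grn+/- mice, a difference that the interaction below tests. The average change was 0.42 in the mice aged 9.44 or 10.07 months, where replicate 3 is the only Grn+/- hTDP- mouse. In females alone it was -0.08 and not called.

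Vim (chromosome 2, 13573927 to 13582826, plus strand) had lowest, median and highest levels of 25.5, 31.5 and 39.4 CPM in Grn+/- hTDP+ mice, 23.7, 28.4 and 38.5 CPM in Grn+/- hTDP- mice, 22.6, 29.2 and 36.6 CPM in Grn+/+ hTDP+ mice and 22.6, 24.7 and 31.8 CPM in Grn+/+ hTDP- mice. All 4 groups overlapped, and the median was lowest in the group with neither allele. The hTDP+ change was 0.14 (SE 0.105, edgeR adjusted p = 0.757). Serpina3n (chromosome 12, 104406729 to 104414329, plus strand), which endotoxin and injury raise strongly in astrocytes, had medians of 14.9 CPM in Grn+/- hTDP+ mice (11.2 to 17.4), 13.7 CPM in Grn+/- hTDP- mice (12.8 to 17.2), 15.5 CPM in Grn+/+ hTDP+ mice (10.8 to 19.0) and 14.3 CPM in Grn+/+ hTDP- mice (11.9 to 17.9). Its hTDP+ change was 0.05 (SE 0.0891, edgeR adjusted p = 0.919) with a 95% interval of -0.14 to 0.23.

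Most other reactive members averaged above 0 in hTDP+ mice without passing the test. Of the 18 tested, 16 had an average above 0 in hTDP+ mice, with a median log2 change of 0.12, while 51.6% of all genes were above 0, with a median near 0. That median was 0.19 without replicate 1 of the Grn+/- hTDP- group and 0.18 without replicate 5 of the Grn+/+ hTDP- group. It was 0.34 in males, 0.045 in females and 0.33 in the mice aged 9.44 or 10.07 months. Replicate 3 was the only Grn+/- hTDP- mouse of those ages. The exceptions were Cd44 at -0.10 and Gbp2 at -0.04. Cd109, a surface protein, stood at 0.46, and at 0.38 without the library with few genes. Cxcl10, the interferon-induced chemokine, stood at 1.02 (edgeR adjusted p = 0.666), and at 0.72 without that library. Ptx3, a pentraxin, stood at 0.46 and at -0.34 without the library with few genes, which held 173 of its reads. Of the 14 identity members, 8 were above 0, with a median of 0.01 and a range of -0.13 (Aqp4) to 0.18 (Gjb6). Without replicate 6 of the Grn+/- hTDP+ group 3 of the 14 were above 0, with a median of -0.03.

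The levels of Slc1a2, Aldh1l1 and Gja1 bound the size of an hTDP difference in these genes. Their within-genotype SD of log2 CPM was 0.125, 0.161 and 0.164. It was larger for Aqp4 (0.284), Gjb6 (0.231) and Sox9 (0.212). Slc1a2 (chromosome 2, 102658659 to 102790784, plus strand) had lowest, median and highest levels of 2049, 2439 and 3085 CPM in Grn+/- hTDP+ mice, 2416, 2663 and 2758 CPM in Grn+/- hTDP- mice, 2147, 2467 and 2696 CPM in Grn+/+ hTDP+ mice and 2406, 2537 and 2817 CPM in Grn+/+ hTDP- mice. Its hTDP+ change was -0.08 with an interval of -0.18 to 0.02. Aldh1l1 (chromosome 6, 90486427 to 90600203, plus strand), widely used to mark all astrocytes, had medians of 54.5 CPM in Grn+/- hTDP+ mice (45.8 to 70.1), 55.9 CPM in Grn+/- hTDP- mice (46.3 to 61.3), 52.7 CPM in Grn+/+ hTDP+ mice (47.9 to 54.1) and 53.2 CPM in Grn+/+ hTDP- mice (41.2 to 58.4), and a change of 0.03 (SE 0.062). Gja1, connexin 43 (chromosome 10, 56377330 to 56402513, plus strand), had medians of 130 CPM in Grn+/- hTDP+ mice (111 to 171), 134 CPM in Grn+/- hTDP- mice (109 to 155), 127 CPM in Grn+/+ hTDP+ mice (115 to 146) and 123 CPM in Grn+/+ hTDP- mice (117 to 129). Its change was 0.03 (SE 0.062). The groups of these 3 genes overlapped widely.

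**Figure D2:**
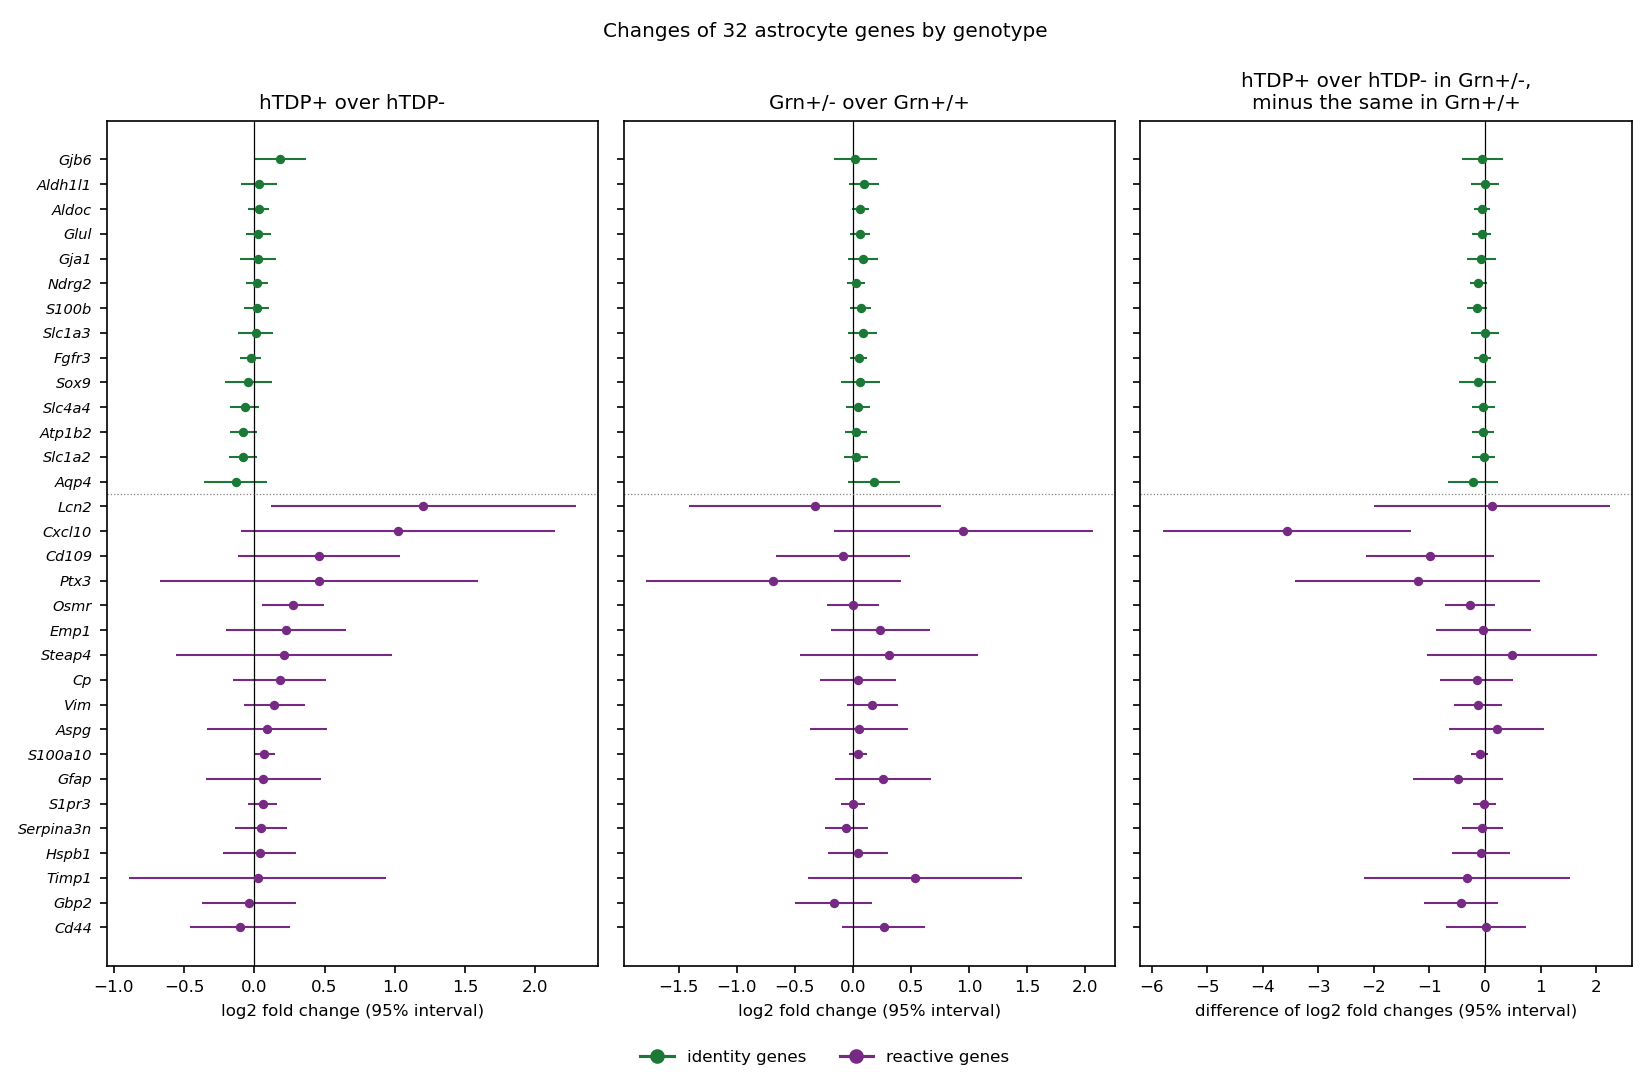
Log2 change with its 95% interval (horizontal axes) for the 32 members tested, in 3 panels: hTDP+ over hTDP-, Grn+/- over Grn+/+, and the interaction. Intervals are narrow for identity genes and wide for weak reactive genes, and the interval of Cxcl10 in the interaction lies below 0.

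For progranulin, no member differed between Grn+/- and Grn+/+ mice at an adjusted p under 0.05 in edgeR, where 4 genes of all tested were called (0.0219%), nor was a member among the 9 genes that DESeq2 called or the 3 that limma voom called. At an unadjusted p under 0.05 stood 0 members and 4.93% of all genes. For each member the values of Grn+/- and Grn+/+ mice overlapped, and 0.0110% of all genes had no overlap.

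All 14 identity genes had averages above 0 in Grn+/- mice, with a median log2 change of 0.07, while 53.5% of all genes were above 0. Without replicate 6 of the Grn+/- hTDP+ group 11 of the 14 were above 0, with a median of 0.026. The values ran from 0.02 (Gjb6) to 0.18 (Aqp4), and the smallest unadjusted p among them was 0.0741 for Aldoc (change 0.07, SE 0.0352, edgeR adjusted p = 0.926). Aqp4, on chromosome 18 (15389496 to 15410982, minus strand), had lowest, median and highest levels of 52.5, 64.9 and 84.0 CPM in Grn+/- hTDP+ mice, 62.1, 77.5 and 114 CPM in Grn+/- hTDP- mice, 47.6, 61.2 and 86.7 CPM in Grn+/+ hTDP+ mice and 50.5, 66.9 and 80.3 CPM in Grn+/+ hTDP- mice. The Grn+/- hTDP- mice had the highest median, and their values overlapped those of the other groups. Members are not replicates of a genotype, and the identity genes share the same mice, so their common direction counts as a description.

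Of the 18 reactive genes, 12 were above 0 in Grn+/- mice, with a median of 0.04. In the mice aged 9.44 or 10.07 months, with replicate 3 as the only Grn+/- hTDP- mouse, 3 of the 18 were above 0. Their median was -0.08. Gfap averaged 84.2 ± 26.1 CPM in Grn+/- hTDP+ mice, 95.6 ± 48.2 CPM in Grn+/- hTDP- mice, 81.6 ± 28.7 CPM in Grn+/+ hTDP+ mice and 66.6 ± 10.6 CPM in Grn+/+ hTDP- mice (SD, n = 6 each). The Grn+/- change was 0.26 (SE 0.198, 95% interval -0.15 to 0.67, edgeR adjusted p = 0.937). It was 0.61 in females alone, -0.09 in males alone and -0.02 in mice aged 9.44 or 10.07 months, and none of these was called. Vim stood at 0.17, Cd44 at 0.27, Timp1, an inhibitor of metalloproteinases, at 0.54 (SE 0.446, and 0.39 without the library with few genes) and Serpina3n at -0.05. Ptx3 stood at -0.68, and at 0.23 without the library with few genes.

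Among the transcript shares of members, those that differed with the Grn genotype were the shares of the Gfap transcripts. Transcript shares of other genes were not tested. Gfap is read mainly as 2 transcripts that share 7 coding exons and differ in their coding end. Gfap-201 encodes the canonical alpha form, and Gfap-202 ends in an exon of its own, as does the form known as GFAP delta, which assembles poorly into filaments by itself. The coding end of Gfap-202 that Gfap-201 does not share is printed from GENCODE M21 because reads over it tell the transcripts apart, with the stop codon in capitals. It lies at chr11:102891399-102891520 on the minus strand of GRCm38, followed by the stop codon.
Gfap-202: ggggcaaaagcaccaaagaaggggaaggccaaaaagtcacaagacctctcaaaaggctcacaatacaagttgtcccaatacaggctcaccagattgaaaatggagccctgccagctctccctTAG
Gfap-202 took 140 to 551 reads in a library. Its share of the Gfap reads had a lowest, median and highest value of 3.09, 3.78 and 4.66% in Grn+/- hTDP+ mice, 3.12, 4.23 and 5.45% in Grn+/- hTDP- mice, 4.17, 6.03 and 7.91% in Grn+/+ hTDP+ mice and 5.80, 6.37 and 8.18% in Grn+/+ hTDP- mice. Among hTDP- mice the Grn+/- and Grn+/+ ranges did not overlap, and among hTDP+ mice they overlapped. How often the shares of all transcripts have no overlap was not counted, so the missing overlap is a description only.

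The share averaged 4.08% in Grn+/- mice and 6.35% in Grn+/+ mice, a difference of -2.27 percentage points. A permutation test of the Grn labels within each hTDP genotype gave p = 1e-05, the smallest that 100000 permutations can give. It was 0.000300 after Benjamini-Hochberg adjustment over 60 comparisons, which were the shares of all tested transcripts of members with more than a single transcript of at least 5%, by Grn and by hTDP. Only the Gfap transcripts passed in this family. By exact permutation tests the difference was -2.13 points with hTDP (p = 0.00649) and -2.41 points without hTDP (p = 0.00216). It was -2.34 points in males, -2.21 in females, -2.45 without the library with few genes and between -2.45 and -2.08 with each mouse left out in turn. This comparison was chosen after the values were seen.

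As a level, Gfap-202 had lowest, median and highest values of 2.31, 3.12 and 4.85 CPM in Grn+/- hTDP+ mice, 2.16, 3.45 and 6.36 CPM in Grn+/- hTDP- mice, 3.02, 4.40 and 7.56 CPM in Grn+/+ hTDP+ mice and 3.32, 4.54 and 4.89 CPM in Grn+/+ hTDP- mice, and these ranges overlapped. Its own log2 change in Grn+/- mice was -0.37 (SE 0.172, edgeR adjusted p = 1), and that of Gfap-201 was 0.30 (SE 0.209). The share was also lower in mice with more Gfap, with r = -0.645 after group means were removed (rho -0.599, permutation p = 0.000640, r = -0.529 without the 2 farthest mice). All Gfap reads are also the denominator of the share, so a negative r arises wherever Gfap-202 varies less than Gfap-201. The permutation does not allow for this, so the test cannot show a relation beyond it. With the share adjusted to the mean level of Gfap, which carries the same coupling, the Grn+/- difference was -2.01 points.

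Gfap lies 450 kb from Grn on chromosome 11 (Grn 102430315 to 102437048). All 4 genes that edgeR called for Grn+/-, with Grn itself (-0.91) among them, lie on the same chromosome, none farther than 1794 kb from Grn. The Grn+/- allele and the chromosome segment inherited with it cannot be told apart in this design. The other members on chromosome 11 are Sox9, Aldoc and Atp1b2, at least 10345 kb away.

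**Figure D3:**
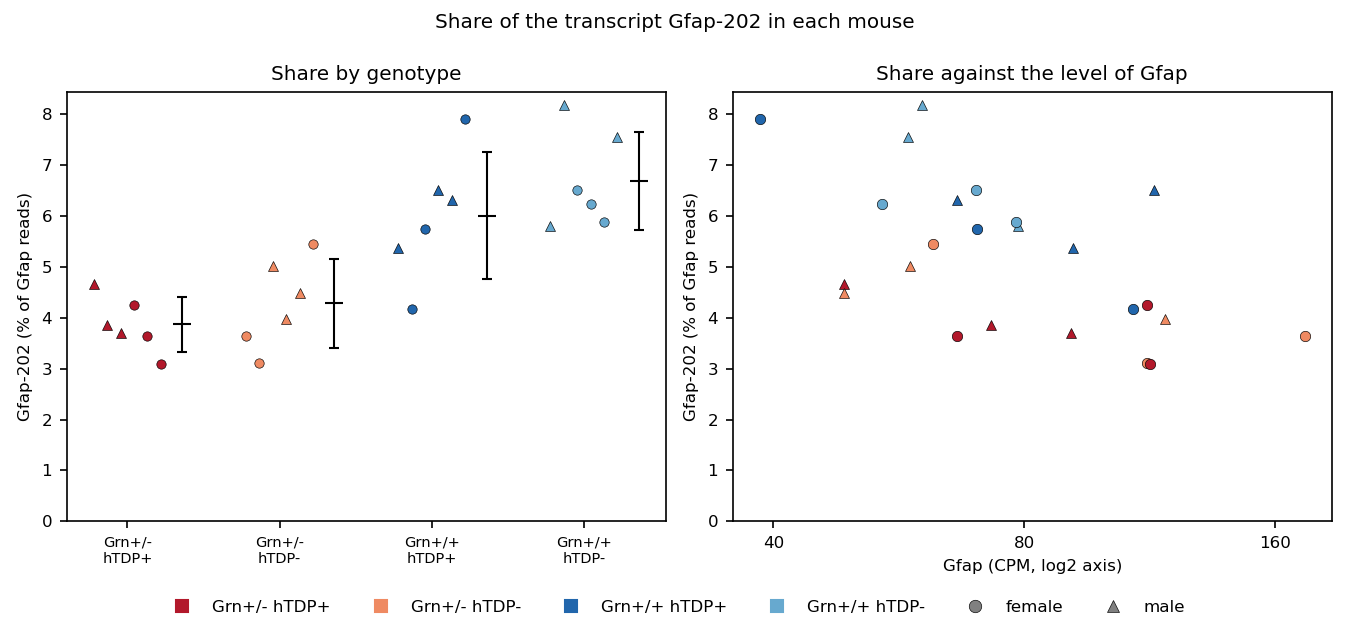
Share of Gfap-202 in the Gfap reads of each mouse (vertical axes, %), by genotype on the left, with the black bar as mean ± SD of 6 mice, and against the level of Gfap (CPM, log2 axis) on the right; circles are female mice and triangles male mice. Grn+/- mice average 4.08% and Grn+/+ mice 6.35%, and the share is lower in mice with more Gfap, which is also its denominator.

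For the interaction, the hTDP change in Grn+/- mice minus that in Grn+/+ mice, edgeR called 0 of 18239 genes (0%), limma voom 0 and DESeq2 3, with no member among them. Of all genes 2.38% had an unadjusted p under 0.05, and so did 1 member, Cxcl10. Of the identity genes 1 of 14 was above 0 (median -0.05) and of the reactive genes 4 of 18 (median -0.11), beside 51.1% of all genes. Neither direction held over all sample sets. The identity median was 0.044 in females and -0.12 without replicate 6 of the Grn+/- hTDP+ group. The reactive median was -0.25 in males and -0.20 without replicate 5 of the Grn+/+ hTDP- group. In the mice aged 9.44 or 10.07 months, with replicate 3 as the only Grn+/- hTDP- mouse, it was 0.15. Gfap stood at -0.48 (SE 0.393, 95% interval -1.30 to 0.33).

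Cxcl10 (chromosome 5, 92346638 to 92348889, minus strand) had lowest, median and highest levels of 0.0162, 0.149 and 0.229 CPM in Grn+/- hTDP+ mice, 0.0263, 0.177 and 0.801 CPM in Grn+/- hTDP- mice, 0.0135, 0.115 and 0.706 CPM in Grn+/+ hTDP+ mice and 0.0141, 0.0275 and 0.0838 CPM in Grn+/+ hTDP- mice. The group with neither allele was low, with 1 to 6 reads in a library, and each of the other groups held mice at that level and mice above it. The interaction was -3.57 (SE 1.08, unadjusted p = 0.00313, edgeR adjusted p = 0.9999). It was -3.04 without the library with few genes, which had the highest Cxcl10 of the Grn+/+ hTDP+ group at 69 reads. In limma voom no member had an unadjusted p under 0.05 in the interaction. For the transcript Cxcl10-201 the interaction was -3.46 in edgeR and -1.70 in limma. Cxcl10 overlaps Art3 on the opposite strand. The protocol text describes both directional and non-directional library steps, so reads of such overlapping pairs cannot be assigned with certainty. The same holds for Timp1 within Syn1, Cp beside Hps3, S100b beside Dip2a, S1pr3 beside a long non-coding RNA gene and Ptx3 beside Veph1. Gfap overlaps the long non-coding RNA gene Gm26668 on the opposite strand, which had no estimated counts, so this limit covers Gfap as well.

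The 5 comparisons between pairs of genotypes share groups and are given side by side without any count of overlap. hTDP+ over hTDP- within Grn+/- mice called 4 genes of all tested (0.0219%) and no member, and had 0 members at an unadjusted p under 0.05, beside 2.38% of all genes, with 4 of 14 identity and 11 of 18 reactive genes above 0. hTDP+ over hTDP- within Grn+/+ mice called 6 genes (0.0329%) and no member. At an unadjusted p under 0.05, 7.83% of all genes, stood Cxcl10 at 2.81 (edgeR adjusted p = 0.591, and 2.24 without the library with few genes), Osmr at 0.41 (0.608), S100a10 at 0.12 (0.617) and Cd109 at 0.95 (0.608), with 15 of 18 reactive genes above 0 (median 0.20). The difference between the 2 hTDP contrasts is what the interaction above tests, and it called none of these genes.

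Grn+/- over Grn+/+ among hTDP+ mice called 1 gene (0.00548%) and no member, with 0 members at an unadjusted p under 0.05, beside 3.37% of all genes, and 11 of 14 identity genes above 0. Among hTDP- mice it called 2 genes (0.0110%) and no member. S100b stood there at 0.14 and Cxcl10 at 2.74, both with an unadjusted p under 0.05, beside 3.41% of all genes, and an edgeR adjusted p of 0.9999, and 14 of 14 identity and 14 of 18 reactive genes were above 0. Grn+/- hTDP+ over Grn+/+ hTDP- mice called 14 genes (0.0768%) and no member. Vim at 0.31 (edgeR adjusted p = 0.529), Cxcl10 at 1.98 (0.471) and S100a10 at 0.12 (0.498) had an unadjusted p under 0.05, as did 9.40% of all genes, and the medians were 0.25 over reactive and 0.07 over identity genes. The values of Cxcl10 in all 3 comparisons against Grn+/+ hTDP- mice use that low group as their base.

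The effects were also compared between the sexes. No gene of 18239 had a sex difference of the hTDP effect or of the Grn+/- effect at an adjusted p under 0.05 in edgeR (0% each), and 4.11% and 5.94% had an unadjusted p under 0.05. Among members, Gbp2 had a hTDP effect that was 0.78 higher in males than in females (edgeR adjusted p = 0.954), and Gja1 had a Grn+/- effect that was 0.26 lower in males than in females (log2 difference -0.26, edgeR adjusted p = 0.826).

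**Figure D4:**
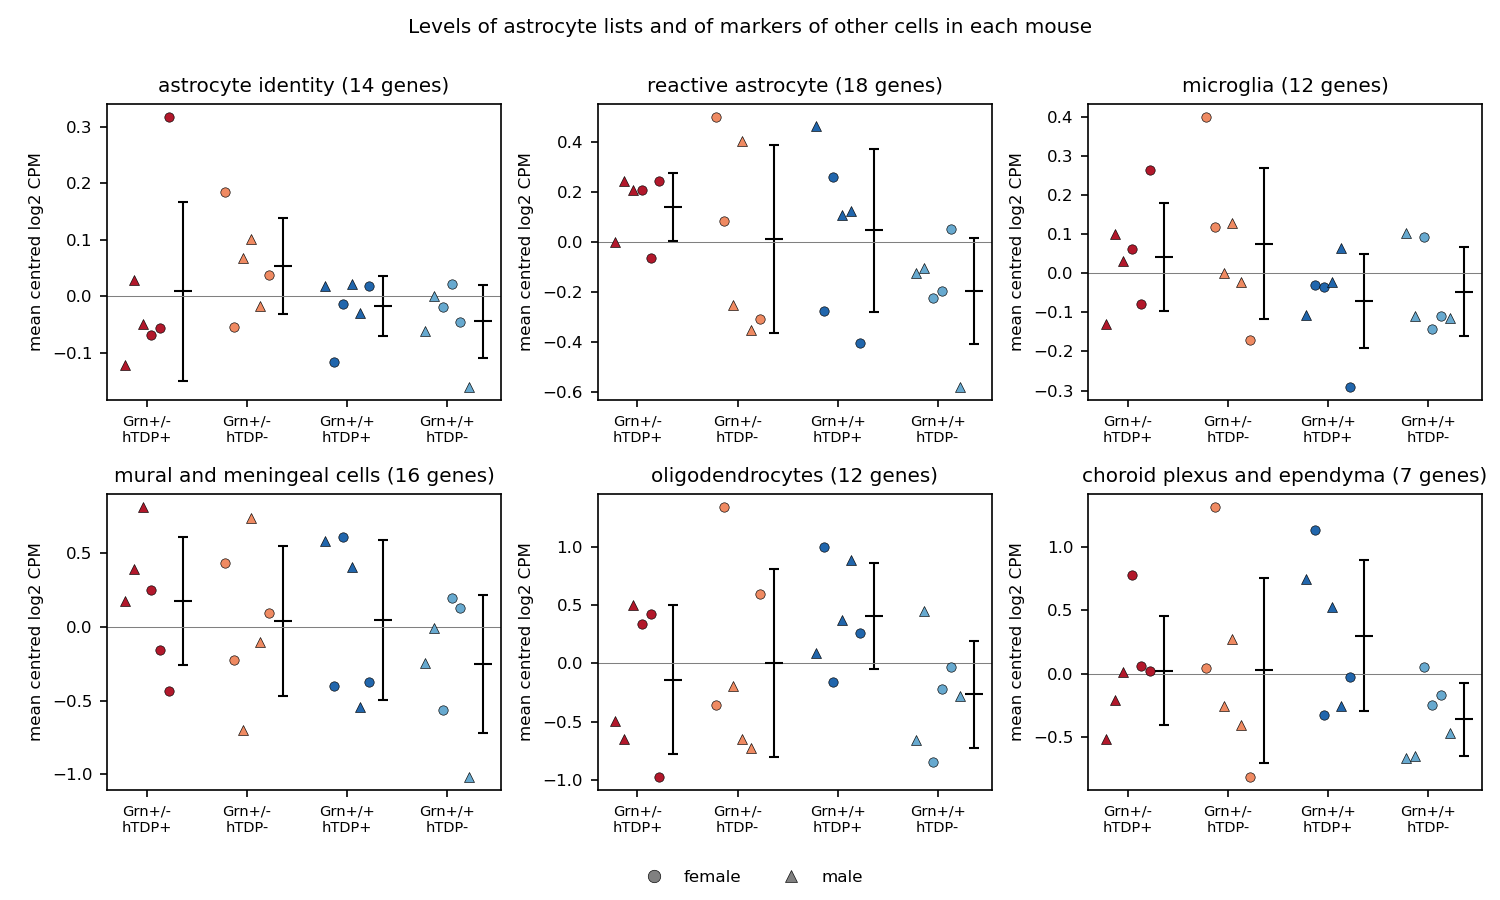
Mean log2 CPM of each gene list in each mouse, with each gene centred on its mean over 24 mice (vertical axes), by genotype; circles are female mice, triangles male mice, and the bar is the mean ± SD of 6 mice. Identity genes span a narrow range, with 1 Grn+/- hTDP+ mouse at 0.32, and the oligodendrocyte, mural and choroid lists range more widely within each genotype.

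Markers of other cells moved between libraries beside these results. Over the 14 identity genes the mean centred log2 level was 0.01 in Grn+/- hTDP+ mice, 0.05 in Grn+/- hTDP- mice, -0.02 in Grn+/+ hTDP+ mice and -0.04 in Grn+/+ hTDP- mice. Over the 18 reactive genes it was 0.14 in Grn+/- hTDP+ mice, 0.01 in Grn+/- hTDP- mice, 0.05 in Grn+/+ hTDP+ mice and -0.20 in Grn+/+ hTDP- mice. On a log2(CPM + 1) scale, which shrinks weak genes, it was 0.036 in Grn+/- hTDP+ mice, 0.0061 in Grn+/- hTDP- mice, 0.048 in Grn+/+ hTDP+ mice and -0.090 in Grn+/+ hTDP- mice, so that the highest group was another. Oligodendrocyte markers summed to 1240 to 3122 CPM in Grn+/- hTDP+ mice, 1343 to 5608 CPM in Grn+/- hTDP- mice, 1990 to 4246 CPM in Grn+/+ hTDP+ mice and 1235 to 3037 CPM in Grn+/+ hTDP- mice. In the hTDP comparison 12 of 12 oligodendrocyte markers were above 0 (median 0.24), 16 of 16 mural and meningeal markers (0.24), 6 of 7 choroid plexus and ependyma markers tested (0.45), 7 of 7 blood cell markers (0.38) and 2 of 12 microglial markers (-0.02). In the Grn comparison 16 of 16 mural and meningeal (0.20), 12 of 12 microglial (0.11) and 0 of 12 oligodendrocyte markers (-0.08) were above 0. The widest shift was that of the blood cell markers, with 7 of 7 above 0 and a median of 0.97. Of these 7, 5 had an unadjusted p under 0.05, beside 4.93% of all genes, and the lowest edgeR adjusted p was 0.926. Their summed level had a median of 63.8 CPM in Grn+/- hTDP+ mice, 18.2 CPM in Grn+/- hTDP- mice, 21.7 CPM in Grn+/+ hTDP+ mice and 20.3 CPM in Grn+/+ hTDP- mice, and their part in the member values was not tested.

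Mural and meningeal markers summed to 253 to 874 CPM in Grn+/- hTDP+ mice, 258 to 626 CPM in Grn+/- hTDP- mice, 340 to 871 CPM in Grn+/+ hTDP+ mice and 203 to 635 CPM in Grn+/+ hTDP- mice. Choroid plexus and ependyma markers summed to 6.13 to 10.1 CPM in Grn+/- hTDP+ mice, 5.62 to 18.6 CPM in Grn+/- hTDP- mice, 6.29 to 29.9 CPM in Grn+/+ hTDP+ mice and 5.62 to 13.6 CPM in Grn+/+ hTDP- mice. No marker of these lists was at 0 in every library, and none was called by genotype. Vim, Timp1, Cd44, S100a10 and Emp1 are also expressed by vascular and meningeal cells, and the part of these cells in the values was not tested.

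Among 40 other astrocyte genes, 21 were above 0 in hTDP+ mice and 36 in Grn+/- mice, with medians of 0.01 and 0.06 and no gene called. The smallest p for hTDP belonged to the metallothionein genes Mt1 (0.18, SE 0.0489, edgeR adjusted p = 0.318) and Mt2 (0.27, adjusted p = 0.392), which bind zinc and respond to metals and glucocorticoids. For Grn+/- they belonged to the lipid carrier gene Apoe (0.13) and the protease inhibitor gene Cst3 (0.09), both with an edgeR adjusted p of 0.926. Of 30 other reactive astrocyte genes 27 were tested, 15 above 0 for hTDP and 20 for Grn+/-, with none called. Fkbp5, a glucocorticoid-induced chaperone partner, stood at 0.19 for hTDP (edgeR adjusted p = 0.569) and Igfbp2, a binding protein of insulin-like growth factors, at 0.34 for Grn+/- (adjusted p = 0.926). Of 15 genes of the STAT3 pathway 13 were tested, 5 above 0 for hTDP and 9 for Grn+/-, and Stat3 itself stood at -0.00 and -0.01.

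Gfap, Vim and C4b, a complement component that reactive and ageing astrocytes express, varied together between mice of the same genotype. C4b has a near-identical neighbour, C4a, so the split of reads between the pair is uncertain. The mouse with the highest Gfap, replicate 1 of the Grn+/- hTDP- group, had 174 CPM, and the mouse with the lowest, replicate 6 of the Grn+/+ hTDP+ group, had 38.5 CPM. After group means were removed, log2 Gfap correlated over 24 mice with C4b at r = 0.954 (rho 0.961) and with Vim at r = 0.877 (rho 0.892). Both had a permutation p, adjusted over 9 relations, of 3.00e-05, which comes from the smallest p that 100000 permutations can give. Without the 2 mice farthest from the median of Gfap, r was 0.937 for C4b and 0.866 for Vim.

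Aqp4 followed Gfap less closely, Aldoc did not follow it, and Serpina3n had a negative r that did not pass the test. Aqp4 correlated at r = 0.619 (rho 0.588, permutation adjusted p = 0.00281, r = 0.544 without the 2 farthest mice). Aldoc had r = -0.02 (permutation adjusted p = 0.926). Serpina3n had r = -0.37 (rho -0.40, permutation adjusted p = 0.113, r = -0.53 without the 2 farthest mice). The summed microglial markers correlated at r = 0.760 (rho 0.729, r = 0.631 without the 2 farthest mice) and the summed choroid and ependyma markers at r = 0.543 (rho 0.704, adjusted p = 0.00961). The mural and meningeal sum had r = 0.02 and the oligodendrocyte sum r = 0.08. Ptgds, a prostaglandin D synthase, made up much of the mural sum, with group means of 240 to 344 CPM. All of these share the library of each mouse.

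**Figure D5:**
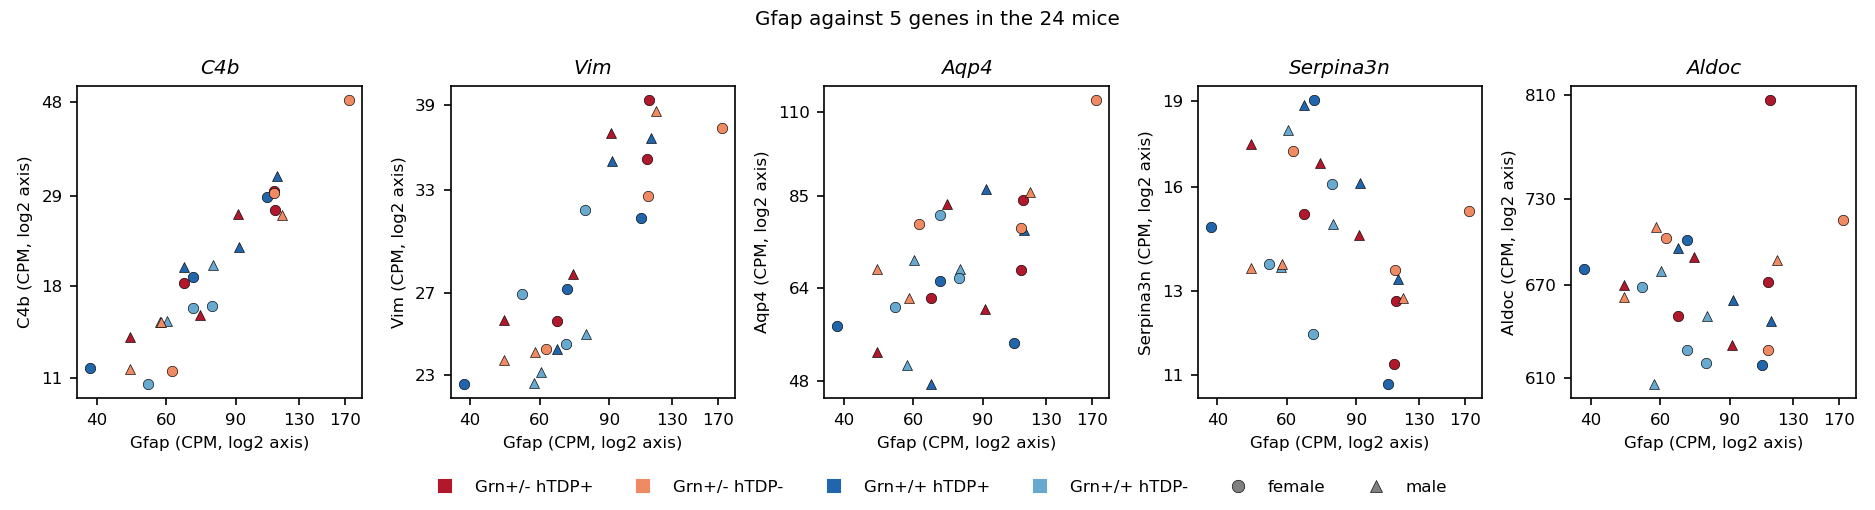
Gfap (horizontal axes, CPM, log2 scale) against C4b, Vim, Aqp4, Serpina3n and Aldoc (vertical axes, CPM, log2 scale), with 1 point per mouse coloured by genotype. C4b and Vim climb with Gfap in all 4 genotypes, Aqp4 does so with more scatter, and Aldoc stays level.

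When every gene was fitted on log2 Gfap with terms for genotype and sex, 105 of 18238 genes were associated at an adjusted p under 0.05 in edgeR (0.576%), of which 75 rose with Gfap (0.411%) and 30 fell (0.164%). C4b ranked first of all genes, rising by 1.03 on the log2 scale per log2 unit of Gfap (SE 0.0701, edgeR adjusted p = 1.60e-08), and Vim ranked second at 0.45 (SE 0.0565, adjusted p = 0.000514). Of the 17 other reactive members tested 1 was called, Vim, and of the 14 identity members 0 were called. The next genes by p were Slc14a1, a urea transporter of astrocytes, Mgst1, Id4, Wnt5a and Id3. From the other lists, Id3, Apoe and Fabp7 of 40 astrocyte genes, C4b, Ggta1, Cd14 and C3 of 27 reactive genes, and C1qc, C1qa, Ctss and Tyrobp of 12 microglial genes rose with Gfap. The slopes of Slc14a1 (0.64), Fabp7 (0.54) and Id3 (0.46) were as steep as that of Vim or steeper. No marker of mural, choroid or blood cells was called. An unadjusted p under 0.05 was reached by 7 of 16 mural and meningeal markers (median slope 0.44) and by 5 of 7 blood cell markers (median slope 1.06), beside 14.9% of all genes. It was also reached by 10 of 12 microglial markers (0.20) and 3 of 7 choroid plexus and ependyma markers (0.53). Of 12 neuronal markers 6 reached it, with a median slope of -0.09 and 1 slope above 0. Of 12 oligodendrocyte markers 0 did (0.11). The part of these cell types in the Gfap pattern was not tested.

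The number of genes called depended on the mice and terms in the fit. Without the 2 mice farthest from the median of Gfap, 3 genes were associated, among them C4b (edgeR adjusted p = 4.56e-06) and Vim (adjusted p = 0.00514). Without these mice the slope was 0.53 for Vim, 0.66 for Fabp7, 1.63 for C3 and 0.27 for C1qc, against 0.45, 0.54, 1.39 and 0.31 in all 24 mice, so that Fabp7, C3 and C1qc were no longer called at slopes of like size. With a linear age term 10 genes were associated, Vim among them (edgeR adjusted p = 0.000874). Without the library with few genes 138 were associated, including Gja1 (edgeR adjusted p = 0.0416) and Aqp4 (edgeR adjusted p = 0.0461). Over all 24 mice, with group means removed, Gfap was higher in older mice, with r = 0.523 against age in months (permutation p = 0.00805, rho 0.488, p = 0.0165). Another 2 mice were then left out, those whose age was farthest from the median after group means were removed. Without them r was 0.390 (permutation p = 0.0723), so that this relation rests in part on these mice of extreme age. Ages ranged most widely in Grn+/- hTDP- mice. Gfap there was 48.6 and 62.2 CPM at 8.19 months, 118 at 9.14, 58.4 at 9.44, 174 at 10.56 and 113 at 10.79. In Grn+/- hTDP+ mice the older ones were not higher, at 48.7 to 112 CPM at 10.07 months and 66.4 and 113 CPM at 9.44 months. The relation was not tested in single genotypes. By genotype C4b was not called, with 0.21 for hTDP, 0.26 for Grn+/- and -0.64 for the interaction.

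At the level of transcripts, 47 transcripts of the members that made up at least 5% of their gene were tested among 51293. None was called by edgeR or by limma for hTDP (0.0390% of all transcripts called by edgeR), for Grn+/- (0.00585%) or for the interaction (0%). At an unadjusted p under 0.05 stood 3, 2 and 1 of them, beside 5.55%, 2.95% and 2.12% of all transcripts. For hTDP these were Fgfr3-209 (0.20, edgeR adjusted p = 0.858), Lcn2-201 and Osmr-201, for Grn+/- Aldoc-201 (0.10) and Gfap-202 (-0.37, unadjusted p = 0.0416), and for the interaction Cxcl10-201.

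Aldoc was split between Aldoc-202, with 71.6% of its reads, and Aldoc-201, with 28.4%, and Slc1a2 was read almost wholly from Slc1a2-202, with 99.7%.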

How the data were processed

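RNA was measured in the frontal cortex of 24 mice, 6 in each of 4 genotypes, with 61445842 to 100859149 reads a library. Per the file headers, the authors deposited Salmon output for each mouse, with estimated counts (NumReads) and TPM for 149444 transcripts. The submitters' processing notes also name STAR, SAMtools and DESeq2. For the genome build, the annotation release and the strand setting, nothing is given in the sources used here. Of the transcripts, 92.4% matched GENCODE M21 (GRCm38) by ID, which sets the gene coordinates, and 1.17 to 1.66% of the reads lay on unmatched ones.

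Estimated counts were summed per gene, rounded and filtered by filterByExpr, which left 18239 genes. They were fitted with edgeR 4.0.16 in R 4.3.3 (TMM, quasi-likelihood, 1 term per genotype and a sex term, 19 residual degrees of freedom), with two-sided tests, Benjamini-Hochberg adjustment over all genes and calls under 0.05. Levels in CPM are counts per library size, and TPM compares genes by length. DESeq2 1.42.0 and limma 3.58.1 served as alternatives, beside other filters, covariates and sample sets. Transcripts were fitted alike, without the uncertainty of assigning reads to transcripts. The fits on Gfap and age, the spread between mice, the transcript shares and the block by age were added after the data were seen.

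The members and the other gene lists were chosen with earlier results of these data known. Named with full values were Gfap, Vim, Serpina3n, Aqp4, Slc1a2, Aldh1l1, Gja1 and any member called or with an unadjusted p under 0.05 in the hTDP, Grn+/- or interaction comparison. Of the other lists the genes of smallest p were named. Other genes were named after their values were seen. Some sequence is not reported here.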

Additional observations from a re-analysis of the deposited data

Results flagged for a closer look

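In 14 of 136 groups of 6 mice, a single mouse lay apart from the other 5 by Dixon's test. Chance gives about 1 in 20 for independent, normally distributed values. Here the test was run on CPM without a log for most groups, and the genes share the same mice. The count therefore cannot be read as an excess over that rate. The cause was not tested in any of these groups. Replicate 6 of the Grn+/- hTDP+ group stood apart as the highest of its group in 5 identity genes: Aldoc at 806 CPM (next mouse 689 CPM), Fgfr3 at 130 CPM (113 CPM), Gjb6 at 63.4 CPM (44.7 CPM), Glul at 1712 CPM (1350 CPM) and Ndrg2 at 597 CPM (465 CPM). Its mean centred log2 level over the 14 identity genes was 0.32, with the next mouse at 0.03. In the same mouse the mean centred log2 level was -0.97 over oligodendrocyte markers, -0.44 over mural and meningeal markers, 0.26 over microglial markers and 1.27 over blood cell markers.

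Single mice also stood apart in weak reactive genes. Lcn2 reached 0.879 CPM in replicate 3 of the Grn+/+ hTDP+ group (next 0.300 CPM), and Cxcl10 reached 0.801 CPM in replicate 1 of the Grn+/- hTDP- group (next 0.258 CPM), which was also the mouse with the highest Gfap. Ptx3 stood at 1.77 CPM in replicate 2 of the Grn+/+ hTDP+ group (next 0.230 CPM), the library with few genes, and at 0.276 CPM in replicate 5 of the Grn+/- hTDP+ group (next 0.151 CPM). The library with few genes was also the lowest of its group for Aldh1l1, at 47.9 CPM (next 52.1 CPM). Hspb1 stood at 12.52 CPM in replicate 4 of the Grn+/- hTDP- group (next 7.51 CPM), S1pr3 at 10.1 CPM in replicate 5 of the same group (next 9.17 CPM) and Fgfr3 at 122 CPM in replicate 4 of the Grn+/+ hTDP- group (next 110 CPM).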

How the results depend on the processing

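No member was called under any of 12 other settings (1152 member values, lowest adjusted p 0.423) or with any of the 24 mice left out (2304 values, lowest adjusted p 0.433). Signs changed in 118 and 140 of these values. Over all genes, hTDP calls numbered 20 in edgeR, 61 in DESeq2, 3 at ages of 9.44 and 10.07 months, 2 with a block by age in months, 3 in males and 1 in females. Grn+/- calls numbered 4, with 9 in DESeq2, 1 with the block by age, 2 in males and 0 in females, and interaction calls 0, with 3 in DESeq2, 2 at those ages and 1 in males. In males alone the identity median was -0.18 in the interaction and -0.086 for Grn+/- with hTDP. At ages of 9.44 and 10.07 months the reactive median was 0.40 for hTDP in Grn+/- mice and -0.22 for Grn+/- without hTDP. That setting leaves 1 Grn+/- hTDP- mouse, assumed to vary like the other groups. Genes associated with Gfap numbered 105, 3 without the 2 mice farthest from its median, 10 with age and 138 without the library with few genes. With the block by age the reactive median was 0.24 for hTDP, -0.051 for Grn+/- and 0.023 in the interaction. The cause of these shifts was not tested. The Gfap-202 difference lay between -2.45 and -1.99 points over all settings tried. Depth limits Lcn2, Steap4, Timp1, Cxcl10 and Tgm1, which had at most 69 reads in any library. No paired analysis was possible because the labels give no replicate number that groups share, and the age block is the nearest to it.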
